A study of Canis lupus familiaris with 15 samples.

Results

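The corpus luteum (CL) is built and dismantled under the control of secreted signals, and 42 genes of the TGFβ, BMP, WNT and growth-factor families were followed here through 4 states of the canine CL. They were all the genes, out of 23630 in the count file, whose dog symbol in the lists of differentially expressed genes (DEG) of the study begins with TGFB, BMP, SMAD, ACVR, INHB, GDF, FST, LTBP, WNT, FZD, SFRP, VEGF, FGF, PDGF, IGF, TEK, ANGPT or NOTCH, with FZD5 and PDGFRA left aside. No gene named NOTCH was among them. Symbols exist for only 2970 genes, all of them listed by the authors for at least 1 of 4 contrasts. These contrasts were made on these dogs and a further luteal regression dog of the study, which was not analysed here. For mid-gestation against antigestagen the lists also hold genes with a p-value below 0.01 that did not pass the authors' adjustment. The genes were thus chosen by the fold changes and p-values of those contrasts, and their values in these 4 contrasts are a description of the members and not a test of them.

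The CL came from 15 clinically healthy cross-breed dogs aged 2 to 8 years, 1 poly-A RNA-Seq library per dog, and all had undergone ovariohysterectomy. The mid-gestation group held 5 untreated pregnant dogs at days 35 to 40 after ovulation. The antigestagen group held 5 pregnant dogs that received the progesterone (P4) receptor blocker aglepristone on days 40 to 45 (2 doses of 10 mg/kg, the second 24 h after the first), with tissue taken 24 h later. The luteolysis group held 3 pregnant dogs, untreated, whose plasma P4, measured every 6 h from day 58, had lain below 2 to 3 ng/ml in 3 consecutive samples. The luteal regression group held 2 non-pregnant dogs at day 65. Total counts per dog ranged from 8558743 to 26284315. Of 32 cell type markers chosen for the CL, 9 had a symbol in the lists. For luteal cells this left only the prolactin receptor PRLR, which was measured in all 15 dogs at 65.8 to 175 CPM, while STAR, CYP11A1 and the other luteal markers could not be looked up. Expression is given as CPM (reads scaled to a common library size by the TMM method) and is not corrected for gene length, so that values are compared between dogs and never between genes. In whole tissue, fewer cells of a type and less RNA per cell cannot be told apart.

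As background, ligands of the TGFβ superfamily (TGFβ, activins, BMP and growth differentiation factors) bind pairs of type I and type II receptor kinases, which phosphorylate the receptor-regulated SMAD proteins such as SMAD2. The inhibitory SMAD7 shuts this signal off and is itself switched on by it. WNT ligands act through frizzled (FZD) receptors and are trapped outside the cell by SFRP proteins. In the CL, PDGF, VEGF and angiopoietin signals are known for building the dense capillary bed and its pericytes.

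The luteolysis dogs did not form a uniform group. In 25 of the 42 genes the dogs Kimba and Senta lay both above or both below all 12 dogs of the other groups. In 21 of these 25 genes (84.0%) the third luteolysis dog, Amy, lay within the range of those 12 dogs. Over all 14922 genes in the fit the first of these shares was 19.3%, and Amy lay within the range in 79.0% of those genes, so that her place is not particular to signalling genes. The other 4 genes were FZD6, in which all 3 luteolysis dogs were above the rest, and BMPER, SFRP1 and ANGPTL4, in which all 3 were below. The counts of DEG against luteolysis are therefore also given without Amy, and so are the genes that gained or lost a call without her. Amy was picked after these values were seen, and without her only the similar dogs Kimba and Senta remain in luteolysis. Ratios and calls without her are therefore a description and no support for a difference.

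**Figure D1:**
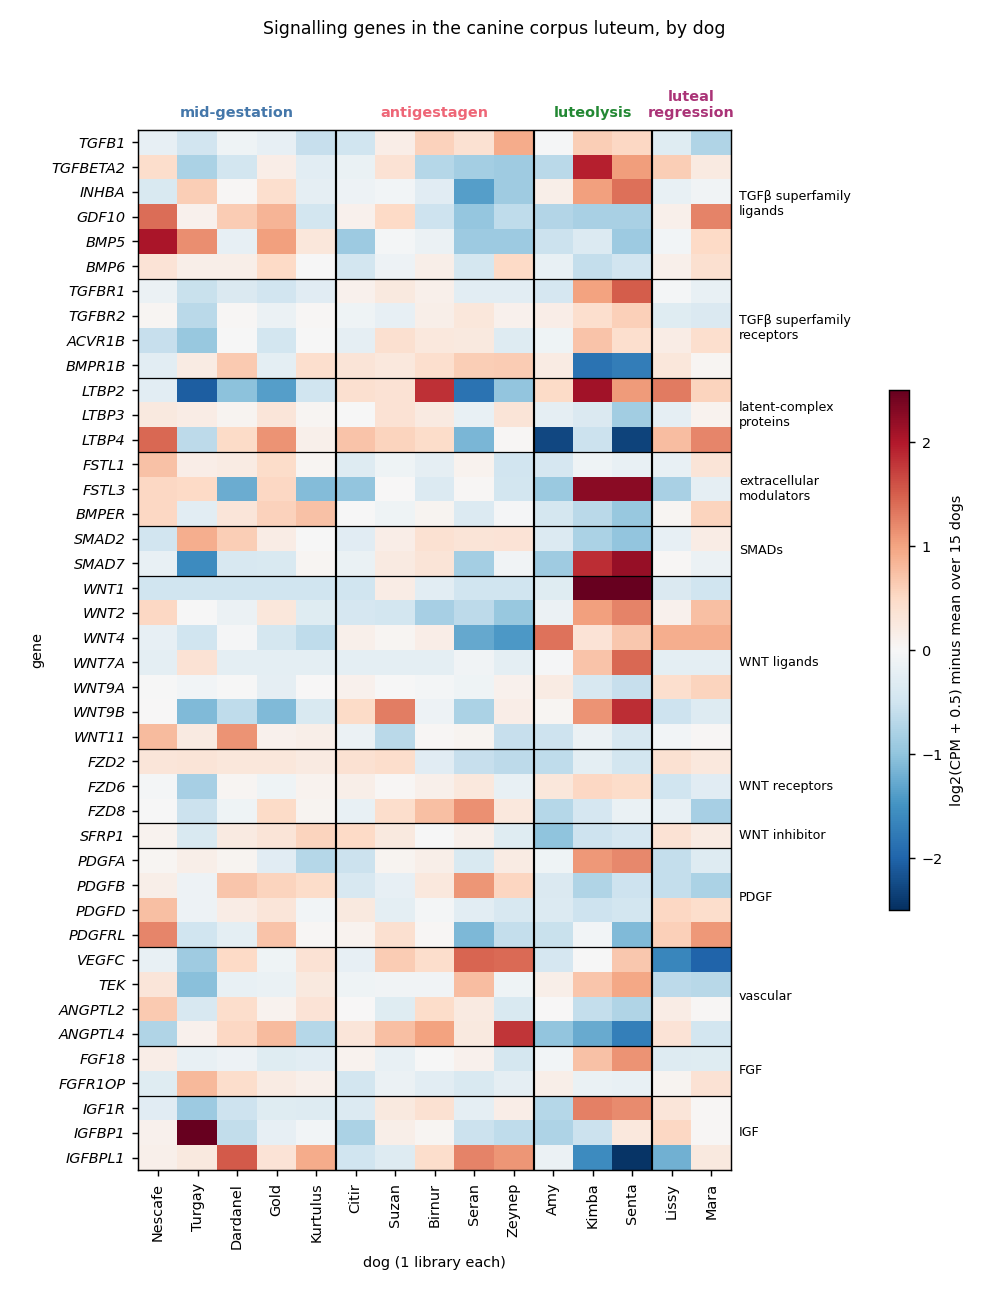
Level of the 42 genes (rows, by role) in 15 dogs (columns, by group), as log2(CPM + 0.5) minus the mean of the gene over all dogs, with red above and blue below the mean and the colours capped at 2.5 in either direction. In the luteolysis block Kimba and Senta carry most of the strong colours, and Amy resembles the other groups in many rows.

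All 42 genes reached a mean count of at least 10 in 1 or more groups and entered the fit. The number tested in a contrast was 42 for “luteal regression over luteolysis” and for “mid-gestation over luteolysis”, 39 for “mid-gestation over antigestagen” and 38 for “luteolysis over antigestagen”. WNT1, WNT7A and FGF18 reached this count in luteolysis only, so that they had to differ once they were tested. Of these WNT7A was nearest to the limit, with a mean count of 10.7. GDF10, BMP5, WNT9B, WNT11 and IGFBP1 reached this count in 2 groups and WNT2 in 3. In some contrasts these too passed through only 1 of the compared groups, which favoured a higher level in that group. This holds for the calls of GDF10 against luteolysis, of WNT2 between luteolysis and antigestagen and of WNT9B between mid-gestation and luteolysis. A DEG is a gene with a p-value below 0.01 and a Benjamini-Hochberg adjusted p-value below 0.1 in the quasi-likelihood test of edgeR. By this rule 27 of the 42 genes were DEG in at least 1 contrast, 19 of them in 1 and 8 in 2, namely GDF10, LTBP3, LTBP4, BMPER, WNT1, PDGFA, PDGFD and ANGPTL4.

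In “mid-gestation over luteolysis” 19 of the 42 genes were DEG, 10 higher and 9 lower at mid-gestation, where 8.16% of all genes tested were DEG, 2.43% higher and 5.73% lower. In “luteal regression over luteolysis” there were 8, with 4 in each direction (5.11% of all genes, 1.52% higher and 3.58% lower), in “luteolysis over antigestagen” 8, with 6 higher and 2 lower in luteolysis (4.75%, 3.12% higher and 1.62% lower), and in “mid-gestation over antigestagen” 0 (0%), both by edgeR and by DESeq2 (0.604% of all genes by DESeq2), with 13 of 39 under 0.05 before adjustment (6.81% of all genes). Without Amy the first 3 numbers became 28, 19 and 17, without Kimba 4, 3 and 3 and without Senta 1, 0 and 0, and the second was also 0 without either regression dog. Of the 35 calls in these contrasts, 34 were lost without at least 1 dog, and the remaining one, WNT1 in “mid-gestation over luteolysis”, had passed the count limit through luteolysis only. The dogs of the contrasted groups did not overlap in 20 of the genes for the first contrast (9.76% of all genes), in 25 for the second (38.1%) and in 11 for the third (7.74%). Because these contrasts chose the genes, nothing is read from how far the counts lie above the share of all genes. For the fits without a dog the share of all genes is not given, so that their counts are not read as particular to these genes. The median absolute log2 ratio of the genes was 1.01 for “mid-gestation over luteolysis” (all genes 0.32), 0.94 for “luteal regression over luteolysis” (all genes 0.40), 0.90 for “luteolysis over antigestagen” (all genes 0.30) and 0.42 for “mid-gestation over antigestagen” (all genes 0.19). In this last contrast 7 of 39 genes had an absolute log2 ratio of 1 or more (4.29% of all genes). The mean of a gene was highest in luteolysis for 18 genes and lowest in luteolysis for another 18, and the median signed log2 ratio was near 0 in all 4 contrasts, between 0.00 and 0.28. Setting genes without a read in a group at their lower bound left these medians as they were.

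Leaving out Amy took the call from GDF10 in “luteal regression over luteolysis” and from GDF10, WNT4 and SFRP1 in “mid-gestation over luteolysis”. In the first of these contrasts 12 genes became DEG without her, namely TGFB1, INHBA, TGFBR1, TGFBR2, BMPR1B, FSTL3, SMAD7, WNT1, WNT7A, WNT9A, FGF18 and IGF1R. In the second there were also 12, namely TGFB1, TGFBETA2, INHBA, BMP6, TGFBR2, ACVR1B, BMPR1B, FSTL3, WNT7A, FZD6, TEK and ANGPTL2. In “luteolysis over antigestagen” 9 genes became DEG, namely TGFBR1, BMPR1B, SMAD2, SMAD7, PDGFA, PDGFB, FGF18, IGF1R and IGFBPL1, and 0 lost their call. Where a gene is called no DEG in what follows, all 15 dogs are meant.

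Among the TGFβ superfamily ligands, TGFBETA2 (as the lists spell the gene of TGFβ2) was measured at 18.5, 116 and 62.5 CPM in the luteolysis dogs Amy, Kimba and Senta. It was between 16 and 38.8 CPM in the antigestagen-treated dogs. Kimba and Senta lay above all treated dogs and Amy among them, and the log2 ratio of luteolysis over antigestagen was 1.51 (SE 0.44) with and 1.95 without Amy. The call of TGFBETA2 was kept in 2 of the 8 fits that each left out 1 dog. INHBA, which encodes the subunit of activin A, was at 44.4, 81.3 and 105 CPM in these luteolysis dogs and at 36.6, 37.8, 32.7, 15 and 21.2 CPM after antigestagen. The 2 groups did not overlap for INHBA (log2 ratio 1.42, SE 0.32). At mid-gestation INHBA ranged from 30.5 to 61.5 CPM, so that Amy lay within that group.

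TGFB1 was not a DEG in any contrast with all dogs, and without Amy it was lower than in luteolysis at mid-gestation (log2 ratio −0.90) and in luteal regression (−1.07), a DEG in both. Its group means were 22.3 ± 3.07 CPM at mid-gestation (mean ± standard deviation, SD, n = 5), 36.2 ± 12.4 after antigestagen (n = 5), 36.7 ± 8.36 in luteolysis (n = 3) and 19.4 ± 4.40 in luteal regression (n = 2). The antigestagen-treated dogs spread from 19.6 to 52.9 CPM and covered the mid-gestation dogs in part. BMP6 averaged 23.6 ± 3.7 CPM in luteolysis against 37.1 ± 5.17 CPM at mid-gestation, without overlap between the dogs, but was no DEG. GDF10 and BMP5 were scarce. GDF10 had 2, 3 and 2 reads in the 3 luteolysis dogs against 8 to 45 reads at mid-gestation and 14 and 40 in luteal regression, and was a DEG in both contrasts with luteolysis (log2 ratios 3.37, SE 1.02, for luteal regression and 3.16, SE 0.92, for mid-gestation). The call of GDF10 for luteal regression was lost without any 1 of the 5 dogs, and that for mid-gestation without any 1 of 6 of the 8 dogs, among them each luteolysis dog. BMP5 had 5 to 64 reads in the mid-gestation dogs and at most 8 in any antigestagen-treated or luteolysis dog, and was no DEG.

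The type I receptors TGFBR1 and BMPR1B stood at opposite ends in the dogs Kimba and Senta, while BMPR1A, ACVR1 and ACVRL1 could not be looked up. TGFBR1, the type I receptor for TGFβ, was at 114, 307 and 439 CPM in Amy, Kimba and Senta and at 139, 104, 119.6, 109.6 and 126 CPM at mid-gestation. Kimba and Senta lay above every other dog, and Amy lay among the mid-gestation dogs. The log2 ratio of mid-gestation over luteolysis was −1.26 (SE 0.29), a DEG, and −1.65 without Amy. BMPR1B, a type I receptor for BMP, was at 613 CPM in Amy and 148 and 161 CPM in Kimba and Senta. In the other 12 dogs it ranged from 446 to 842 CPM. With Amy, BMPR1B was no DEG in any contrast (log2 ratio of mid-gestation over luteolysis 1.00), whereas without her it passed the criteria in all 3 contrasts with luteolysis, with a log2 ratio of 1.99 for mid-gestation and −2.24 for luteolysis over antigestagen. The type II receptor TGFBR2 averaged 526 ± 79.5 CPM in luteolysis against 316 ± 9.39 CPM in luteal regression, and the activin type I receptor ACVR1B 12.4 ± 3.55 against 11.7 ± 1.42 CPM. At mid-gestation TGFBR2 averaged 365 ± 69.3 CPM and ACVR1B 7.19 ± 2.04 CPM. With all dogs neither was a DEG. Without Amy TGFBR2 was one in both contrasts (log2 ratios −0.82 for luteal regression and −0.64 for mid-gestation over luteolysis), and ACVR1B was one for mid-gestation over luteolysis (−0.99).

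Latent TGFβ-binding proteins (LTBP) sit in the matrix, where LTBP3 and LTBP4 hold TGFβ in its latent complex. LTBP4 was at 393, 92.1, 203, 316 and 158 CPM in the mid-gestation dogs Nescafe, Turgay, Dardanel, Gold and Kurtulus. In luteal regression it was at 248 and 340.4 CPM, after antigestagen at 65.8 to 239.6 CPM and in the luteolysis dogs Amy, Kimba and Senta at 29.7, 100.3 and 28.8 CPM. Luteal regression did not overlap with luteolysis (log2 ratio 2.47, SE 0.63), while Turgay at mid-gestation fell below Kimba (log2 ratio of mid-gestation over luteolysis 2.13, SE 0.55). LTBP4 is one of the few genes in which Amy sided with Senta, and both ratios, at 2.23 and 1.85 without her, stayed DEG. The summed level of the 3 collagen markers with a symbol (COL1A1, COL1A2 and COL3A1, of 6 stromal markers chosen) ran from 3599 to 14793 CPM at mid-gestation, 3312 to 9102 after antigestagen, 1833 to 4467 in luteolysis and 5163 to 6851 in luteal regression. In the mid-gestation dogs each of the 3 collagens fell in the order Nescafe, Gold, Kurtulus, Dardanel and Turgay, and LTBP4 in that order with Kurtulus and Dardanel exchanged. These orders are given for mid-gestation only. Mean LTBP4 was higher in luteal regression (294 CPM) than at mid-gestation (233 CPM). The collagen means were lower in luteal regression, at 879 against 2099 CPM for COL1A1, 3809 against 4049 for COL1A2 and 1319 against 2147 for COL3A1. The part of stromal cells in the LTBP4 values was not tested.

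LTBP3 was at 115 and 80.5 CPM in Kimba and Senta, below every other dog, and at 127 CPM in Amy. It was at 153 to 182 CPM at mid-gestation, and was a DEG without overlap between dogs when luteolysis was set against mid-gestation (log2 ratio of mid-gestation over luteolysis 0.63, SE 0.18) or antigestagen (−0.61, SE 0.18). LTBP2, a microfibril protein that does not bind latent TGFβ, went against the other family members. It was at 39.8, 123 and 59.9 CPM in luteolysis and 6.42 to 23.7 CPM at mid-gestation (log2 ratio −2.32, SE 0.63). After antigestagen it spread from 7.57 to 102 CPM, across both of these groups.

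Of the secreted modulators, FSTL3, a follistatin-like protein that neutralises activin, was at 4.20, 41.7 and 41.8 CPM in the 3 luteolysis dogs. The highest value in the other 12 dogs was 12.3 CPM. The log2 ratio of luteolysis over antigestagen was 2.12 (SE 0.58), a DEG, and 2.64 without Amy, who was herself below all but 3 dogs of other groups. The call of FSTL3 was kept in only 1 of the 8 fits that each left out 1 dog. BMPER, which binds BMP outside the cell, was low in all 3 luteolysis dogs. It was at 9.01, 7.59 and 6.2 CPM in luteolysis against 18.0, 10.2, 15.5, 18.7 and 21.0 CPM at mid-gestation and 12.9 and 18.5 CPM in luteal regression. The dogs did not overlap in either contrast (log2 ratios 1.14, SE 0.24, and 1.05, SE 0.29), and with 9.70 to 13.1 CPM the antigestagen-treated dogs lay just above luteolysis. FSTL1 averaged 577 ± 63.5 CPM in luteolysis against 858 ± 170 CPM at mid-gestation and was no DEG.

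Both SMAD genes were DEG between mid-gestation and luteolysis, in opposite directions. SMAD7 was at 3.83, 28.4 and 35.9 CPM in Amy, Kimba and Senta and at 6.61, 2.21, 5.62, 5.64 and 7.84 CPM at mid-gestation. No dog of another group exceeded 9.59 CPM. The log2 ratio of mid-gestation over luteolysis was −2.03 (SE 0.51) and −2.53 without Amy. SMAD2 was at 55.0, 40.2 and 35.4 CPM in these luteolysis dogs and at 50.5, 132, 107, 80.4 and 70.1 CPM at mid-gestation. Only Nescafe fell below Amy, and the log2 ratio was 1.02 (SE 0.28). In luteal regression SMAD7 (7.23 ± 0.64 CPM) and SMAD2 (70.1 ± 13.5 CPM) were at levels seen at mid-gestation.

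**Figure D2:**
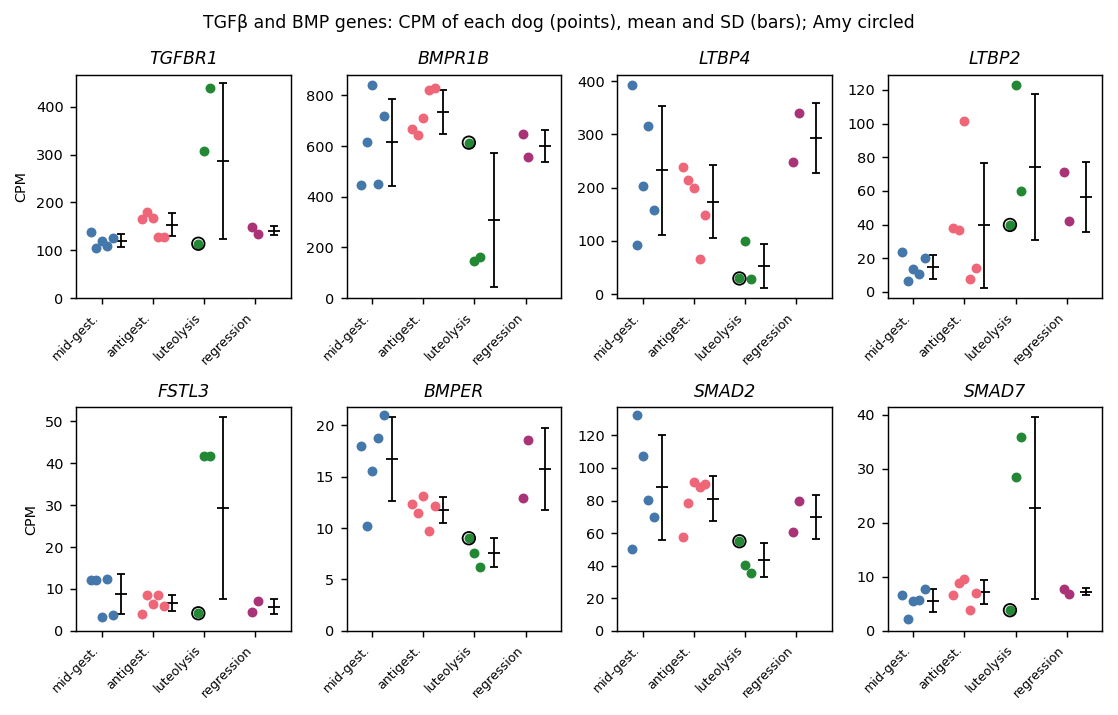
CPM (linear axis) of 8 TGFβ and BMP genes by group, with a point for each dog, a bar for the mean and SD, and a circle around Amy. TGFBR1, FSTL3 and SMAD7 are high and BMPR1B low in 2 of the 3 luteolysis dogs, and BMPER and LTBP4 are low in luteolysis.

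The WNT ligands were scarce, and their reads are given as raw counts where they are few. WNT1 had few reads outside luteolysis. It had 1, 104 and 66 reads in Amy, Kimba and Senta, 0 in all 5 mid-gestation dogs, 1 and 0 in luteal regression and at most 6 in an antigestagen-treated dog. With a floor of 3 reads over the mid-gestation group, WNT1 was at least 103-fold higher in luteolysis than at mid-gestation, and over luteal regression, with 1 read, the ratio was 122 (exact 95% interval 21.6 to 4856, which covers counting error only). Of the 171 reads in luteolysis all but 1 came from Kimba and Senta. WNT1 was no DEG in “luteal regression over luteolysis”. Both WNT1 and WNT7A passed the count limit through luteolysis only, so that ratios above 1 were favoured beforehand. WNT7A had 1, 12 and 19 reads in luteolysis, 0 in both luteal regression dogs and 1 read over the 5 antigestagen-treated dogs. This was a ratio over antigestagen of 44.8 (exact 95% interval 7.49 to 1825, counting error only). The call of WNT7A over antigestagen was kept in 1 of the 7 fits that left out 1 dog and still tested it. It was also lost under DESeq2 and without the filter. WNT2 had 5, 37 and 31 reads in luteolysis and 0 to 4 in the treated dogs, without overlap (log2 ratio 3.32, SE 0.70), but 6 to 17 reads at mid-gestation and 11 and 22 in luteal regression. WNT9B had 8, 46 and 58 reads in luteolysis and 0 to 11 at mid-gestation (log2 ratio of mid-gestation over luteolysis −3.09, SE 0.94). The call of WNT9B was kept in 2 of the 8 fits that each left out 1 dog.

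WNT4, a ligand with a role in ovarian development, was the ligand in which Amy led. It was at 8.48, 3.99 and 5.16 CPM in luteolysis and 2.57, 2.00, 2.97, 2.09 and 1.76 CPM at mid-gestation (log2 ratio −1.36, SE 0.43, without overlap). In luteal regression it was at 6.16 and 6.11 CPM. The ratio was −1.01 without Amy, and the call of WNT4 was lost without any 1 of the 8 dogs. WNT9A was at 6.90 and 7.54 CPM in luteal regression, above all other dogs (3.19 to 5.86 CPM). WNT11 was the only ligand with its highest group mean at mid-gestation, at 12 to 28 reads per dog against 3 to 11 in luteolysis. Neither WNT9A nor WNT11 was a DEG.

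SFRP1, the secreted WNT inhibitor, was at 6.16, 8.86 and 9.45 CPM in luteolysis, below all other dogs. At mid-gestation it was at 13.6, 9.76, 15.2, 16.3 and 19.3 CPM (log2 ratio 0.86, SE 0.25). Without Amy it came to 0.69, and the call of SFRP1 was lost without any 1 of 6 of the 8 dogs, among them each luteolysis dog. Of the receptors, FZD6 averaged 73.3 ± 6.33 CPM in luteolysis against 41.7 ± 4.61 CPM in luteal regression (log2 ratio of regression over luteolysis −0.81, SE 0.24, a DEG), and all 3 luteolysis dogs were above the 12 others. FZD2 (1.36 ± 0.249 CPM in luteolysis against 2.58 ± 0.0854 CPM at mid-gestation) and FZD8 (6.29 ± 1.28 and 8.64 ± 2.33 CPM) were no DEG.

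**Figure D3:**
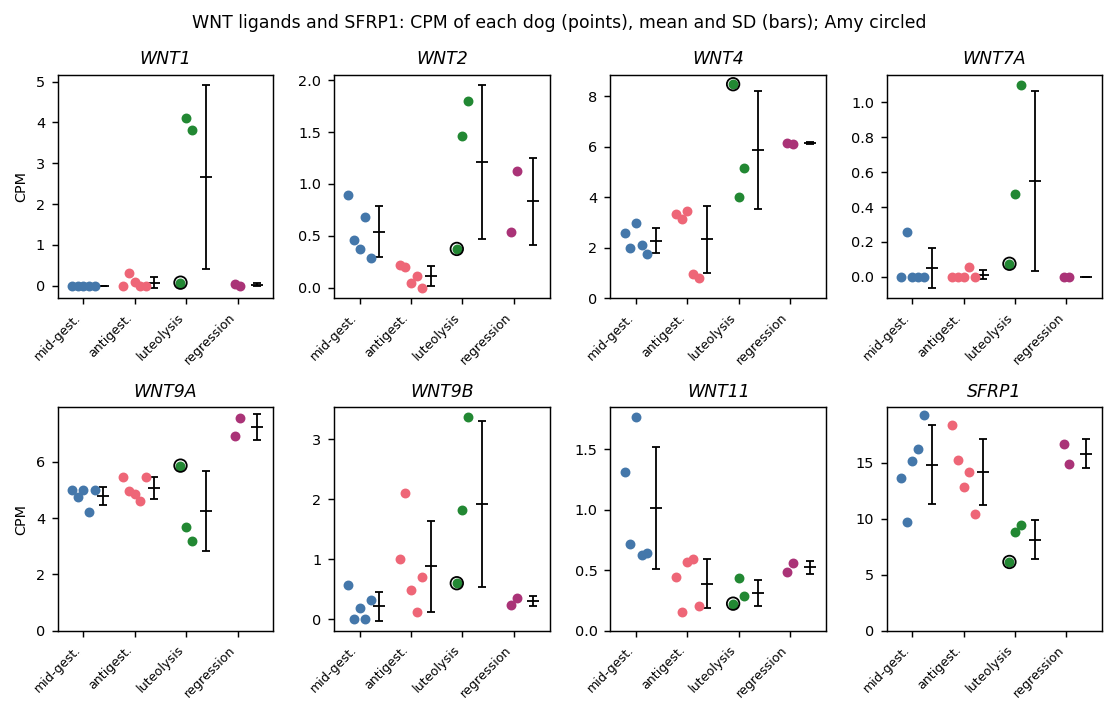
CPM (linear axis) of 7 WNT ligands and SFRP1 by group, with a point for each dog, a bar for the mean and SD, and a circle around Amy. WNT1, WNT2 and WNT7A are highest in 2 luteolysis dogs, WNT4 is highest in Amy, and SFRP1 is lowest in the 3 luteolysis dogs.

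Among the platelet-derived growth factors, which act on stromal cells and pericytes, the A chain and the B and D chains parted between mid-gestation and luteolysis. PDGFA was at 22.1, 51.2 and 55.6 CPM in Amy, Kimba and Senta, at 24.5, 26.3, 24.9, 19.5 and 14.3 CPM at mid-gestation and at 15.6 and 19.1 CPM in luteal regression. Its log2 ratios were −0.97 (SE 0.28) for mid-gestation and −1.31 (SE 0.37) for luteal regression over luteolysis. Kimba and Senta were above every other dog, and Amy was inside the mid-gestation range. PDGFB was at 34.5, 26.2 and 31.0 CPM in luteolysis and 49.3, 40.9, 72.5, 66.3 and 61.3 CPM at mid-gestation (log2 ratio 0.93, SE 0.30, no overlap). The call of PDGFB was kept in 2 of the 8 fits that each left out 1 dog. In luteal regression PDGFB was at 29.5 and 25.5 CPM and overlapped with luteolysis (log2 ratio of regression over luteolysis −0.15, SE 0.36). PDGFD was at 128, 113 and 119 CPM in luteolysis, against 148 to 276 CPM at mid-gestation and 235 and 222 CPM in luteal regression. The 3 luteolysis dogs overlapped with neither group, with log2 ratios of 0.69 (SE 0.21) and 0.93 (SE 0.25). PDGFRL, a receptor-like protein without a kinase, averaged 22.8 ± 8.10 CPM in luteolysis against 60.4 ± 14.4 CPM in luteal regression and was no DEG.

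Of the vascular genes, VEGFC, a growth factor for lymphatic vessels, set luteal regression apart. It was at 24.9 and 19.2 CPM in luteal regression, and no other dog was below 42.1 CPM. It was at 58.3, 77.9 and 125 CPM in luteolysis (log2 ratio of regression over luteolysis −1.98, SE 0.51, a DEG) and at 68.1, 122, 107, 217 and 212 CPM after antigestagen. TEK, the endothelial receptor of the angiopoietins, was at 52.7 and 51.3 CPM in luteal regression and 93.2, 136 and 165 CPM in luteolysis (log2 ratio −1.34, SE 0.38, a DEG), while Turgay at mid-gestation was lower still at 40.3 CPM. The sum of PECAM1 and VWF, the 2 endothelial markers of 6 that could be looked up, was 178 and 191 CPM in luteal regression, 272 to 662 in luteolysis, 299 to 632 after antigestagen and 174 to 435 at mid-gestation. Its part in the values of VEGFC and TEK was not tested. The 2 leukocyte markers of 8 that could be looked up, ITGAM and CD3E, went opposite ways between luteal regression and luteolysis. ITGAM was at 3.03 and 3.37 CPM in luteal regression against 4.50 to 26.0 CPM in luteolysis. CD3E was at 0.880 and 1.18 CPM in luteal regression against 0.290 to 0.791 CPM in luteolysis.

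The angiopoietin-like genes share the prefix and not the receptor. ANGPTL4, an inhibitor of lipoprotein lipase, was at 46.5, 38.1 and 27.9 CPM in luteolysis and at 114, 154, 186, 109 and 319 CPM after antigestagen (log2 ratio −2.24, SE 0.44). At mid-gestation it was at 54.2, 99.7, 132, 160.1 and 56.2 CPM (log2 ratio of mid-gestation over luteolysis 1.42, SE 0.42). All 3 luteolysis dogs were below all 12 others, and the ratios were −2.41 and 1.60 without Amy. ANGPTL2 averaged 56.9 ± 17.1 CPM in luteolysis against 91.0 ± 23.4 CPM at mid-gestation and was no DEG.

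**Figure D4:**
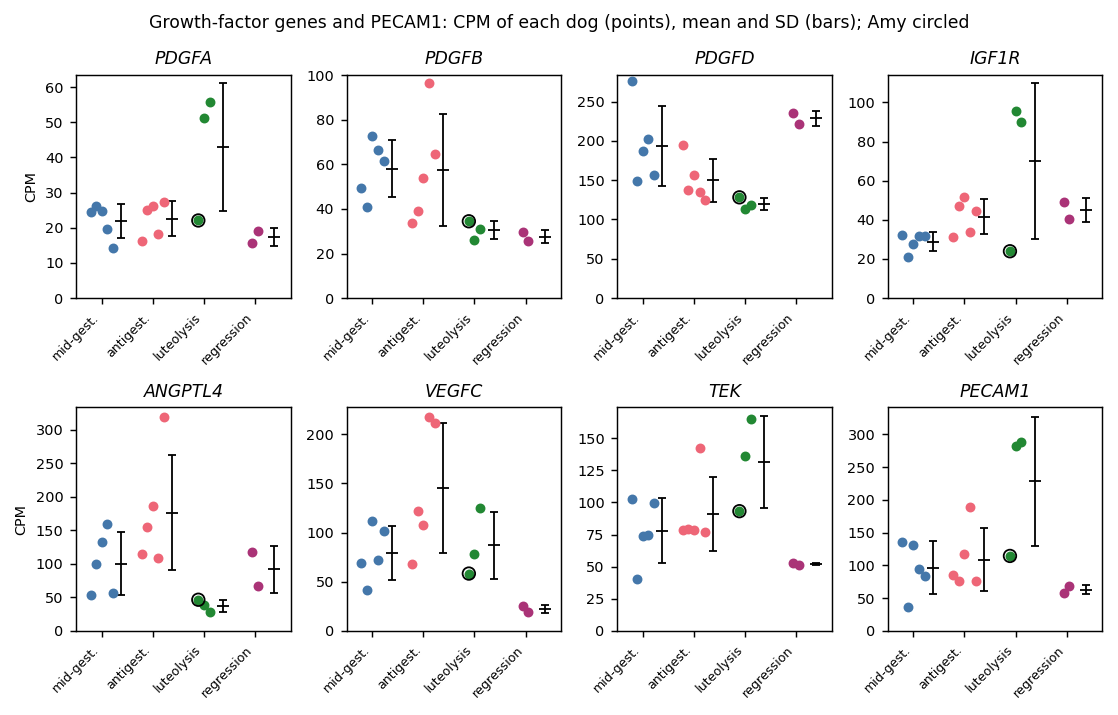
CPM (linear axis) of PDGF, IGF and vascular genes by group, and of the endothelial marker PECAM1, with a point for each dog, a bar for the mean and SD, and a circle around Amy. VEGFC is lowest in the 2 luteal regression dogs, ANGPTL4 in the 3 luteolysis dogs, and PDGFA, IGF1R and PECAM1 are highest in 2 luteolysis dogs.

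IGF1R, the receptor of insulin-like growth factor 1, was at 23.9, 95.8 and 89.96 CPM in Amy, Kimba and Senta. At mid-gestation it was at 32.4, 20.9, 27.6, 31.9 and 31.5 CPM, and the log2 ratio was −1.28 (SE 0.32) with and −1.69 without Amy. IGFBPL1, a protein related to the IGF-binding proteins, was at 8.56, 2.89 and 1.33 CPM in these luteolysis dogs and at 10.5 to 28.5 CPM at mid-gestation (log2 ratio 1.95, SE 0.62). The call of IGFBPL1 was kept in 2 of the 8 fits that each left out 1 dog. FGF18 had 2, 16 and 17 reads in luteolysis and 1 to 5 reads in a mid-gestation dog (log2 ratio −2.24, SE 0.71). Its call was kept in 2 of the 6 fits that left out 1 dog and still tested it. The ratio of luteolysis over luteal regression, which had 2 reads in all, was 12.5 (exact 95% interval 3.21 to 107, counting error only). FGF18 was no DEG in that contrast. A ratio above 1 was favoured beforehand, because FGF18 passed the count limit through luteolysis only. IGFBP1 and FGFR1OP, which despite its symbol encodes a centrosomal protein, were no DEG. FGFR1OP was at 19.9 ± 1.77 CPM after antigestagen and 30.3 ± 8.78 CPM at mid-gestation.

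**Figure D5:**
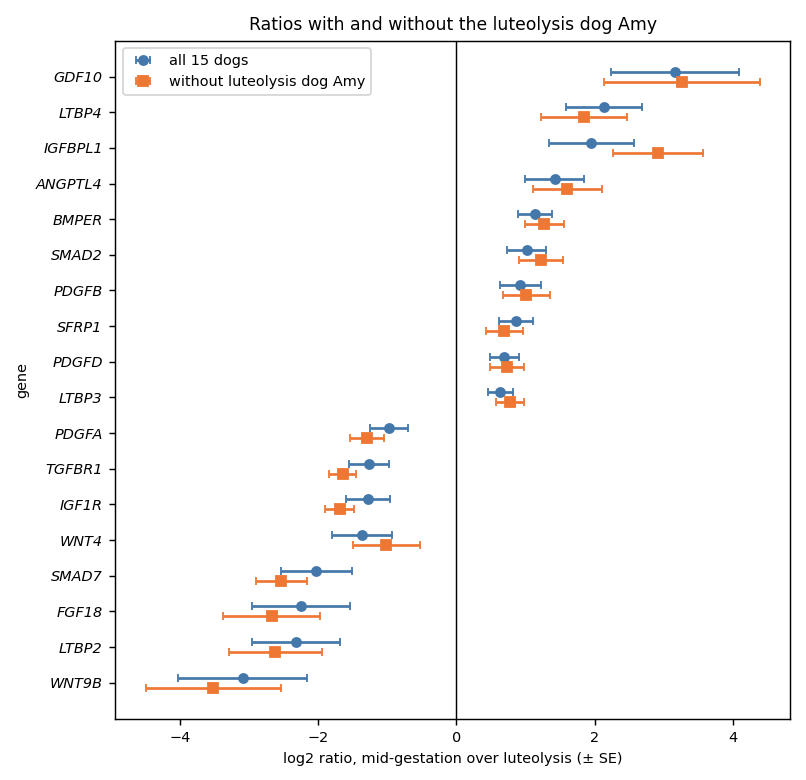
Log2 ratio ± SE of mid-gestation over luteolysis for 18 of the 19 DEG among the signalling genes, with all 15 dogs (circles) and without Amy (squares), where values above 0 are higher at mid-gestation. WNT1, with 0 reads at mid-gestation, is not drawn, and IGFBPL1 moved furthest, from 1.95 to 2.92.

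Between mid-gestation and antigestagen, groups that differed in aglepristone and also in days of gestation, the dogs overlapped in all but 2 of the 39 genes tested (1.24% of all genes did not overlap), namely WNT2 and WNT11. WNT2 had 6 to 17 reads at mid-gestation and 0 to 4 after treatment (log2 ratio 2.14). WNT11 had 12 to 28 reads at mid-gestation and 2 to 13 after treatment (log2 ratio 1.33). The depths differ, so that these groups are apart in CPM although a treated dog had as many reads of WNT11 as a mid-gestation dog. Both WNT2 and WNT11 passed the count limit of this contrast through mid-gestation only, which favoured a higher level there beforehand. The receptors TGFBR1, TGFBR2, ACVR1B and BMPR1B had log2 ratios between −0.49 and −0.18, and those of SMAD2 and SMAD7 were 0.12 and −0.37.

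Luteal regression was also compared with mid-gestation and with antigestagen, 2 contrasts that had no part in choosing the genes, although they share all their dogs with those that had. In “luteal regression over mid-gestation” 0 of 38 genes tested were DEG (edgeR, 0% of all genes). Before adjustment 6 lay under 0.05 (14.1% of all genes), a share close to that of all genes, and DESeq2 called 2 (PDGFB and VEGFC, 2.26% of all genes). In “luteal regression over antigestagen” 0 of 39 were DEG (edgeR, 0% of all genes). Before adjustment 10 lay under 0.05 (17.1% of all genes), and DESeq2 called 6 (TGFB1, WNT2, WNT4, FZD8, PDGFB and VEGFC, where it called 6.31% of all genes). The median absolute log2 ratio of the genes was 0.34 for the first (all genes 0.35) and 0.51 for the second (all genes 0.37). With 2 luteal regression dogs, the dogs did not overlap in 8 and 12 of these genes, and in 30.5% and 29.7% of all genes.

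VEGFC had the smallest p-value among the genes in both contrasts. The log2 ratio came to −1.85 (SE 0.48, edgeR adjusted p = 0.319) over mid-gestation and −2.72 (SE 0.51, edgeR adjusted p = 0.140) over antigestagen, lower in 2 of 2 regression dogs than in every other dog. PDGFB was at 29.5 and 25.5 CPM in luteal regression, below all mid-gestation and treated dogs. For PDGFB the log2 ratios were −1.08 (SE 0.35, edgeR adjusted p = 0.319) over mid-gestation and, over antigestagen, −1.07 (SE 0.35, edgeR adjusted p = 0.204). WNT4 was higher in both regression dogs than in all mid-gestation and treated dogs, with log2 ratios of 1.43 (SE 0.48, edgeR adjusted p = 0.319) and 1.38 (SE 0.48, edgeR adjusted p = 0.210). With all dogs in the model, none of these passed the adjustment by edgeR. With only the 2 compared groups in the model, edgeR called VEGFC, PDGFB and WNT4 over mid-gestation, and LTBP2 as well. Over antigestagen that kind of fit called 0 genes. The edgeR fit without the treated dog Citir called VEGFC over antigestagen, and neither PDGFB nor WNT4. The calls of these genes thus depended on which dogs were in the model.

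Of 115 further genes of these pathways chosen for their function, 12 had a symbol in the lists, so that these too come from genes the authors had listed. In “mid-gestation over luteolysis” 3 of the 12 were DEG and higher at mid-gestation (2.43% of all genes), and 1 was lower (5.73% of all genes). The higher ones were LRP5, a WNT co-receptor, at 128 to 181 CPM at mid-gestation against 82.9, 50.8 and 34.5 CPM in luteolysis (log2 ratio 1.34), the SMAD repressor SKI (log2 ratio 0.75) and the WNT effector TCF7L2 (log2 ratio 0.73). The lower one was THBS1, an activator of latent TGFβ, with 31.5, 1412 and 1382 CPM in Amy, Kimba and Senta (log2 ratio −2.43). The smooth muscle marker TAGLN, at 60.3, 1006 and 988 CPM in these dogs, split them in the same way. It was the only 1 of 4 smooth muscle and pericyte markers that could be looked up. At mid-gestation TAGLN ran from 47.4 to 447 CPM. Its part in the values of THBS1 or of the signalling genes was not tested. In “luteal regression over luteolysis” 2 of the 12 were DEG and higher (1.52% of all genes). In “luteolysis over antigestagen” 2 were DEG and lower (1.62% of all genes), and in the remaining 3 contrasts 0 were (0% of all genes).

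Within groups, the median SD of log2(CPM + 1) over the 42 genes was 0.36 at mid-gestation (all genes in the fit 0.29), 0.32 after antigestagen (0.35), 0.40 in luteolysis (0.34) and 0.19 in luteal regression (0.14).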

How the data were processed

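Per the labels and the methods of the study, the authors sequenced poly-A RNA single-end, aligned the reads with STAR (version 2.5.1b) to CanFam3.1 and counted them per Ensembl gene with featureCounts. The deposited values are raw counts of 23630 genes in 15 dogs, without normalization, with values from 10000 upwards given to 4 significant digits. The annotation release and strand setting are not given in the sources used here. Fold changes and p-values in the additional files are the authors' own comparisons and were not used, apart from the symbols paired there with Ensembl identifiers. The RefSeq table at hand carries no Ensembl identifiers, so that counts over whole gene families were not made and no sequences are shown.

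Groups follow the labelled condition. The description of Nescafe (mid-gestation) carries another group number than the title and condition, which were followed. The fit held 14922 genes, those whose mean count reached 10 in a group. One model with a mean per group was fitted over all 15 dogs in edgeR 4.0.16 (R 4.3.3) with TMM scaling, and each of 6 contrasts was tested two-sided by the quasi-likelihood F-test, with Benjamini-Hochberg adjustment over all genes tested. The scripts were tested on simulated data. The SE is the absolute log2 ratio divided by the square root of F. No label says that the dogs are other than separate animals. Intervals and floors (3 counts) cover counting error only. The alternatives were DESeq2's size factors, the Wald test of DESeq2 1.42.0, no filter, a mean count of at least 50, the compared groups alone and each dog left out. Members, lists and tests were chosen with earlier results of these data known. Values of every dog were to be given for genes that were DEG in at least 3 of the 6 contrasts or in the 2 added ones, which held for 0 genes, so that the genes shown dog by dog were chosen after their values were seen.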

Additional observations from a re-analysis of the deposited data

Results flagged for a closer look

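Among the mid-gestation and the antigestagen-treated groups, each of 5 dogs, 6 values of the 42 genes lay far from the other dogs of the group by Dixon's criterion, in 83 group and gene combinations tested. For normally distributed values chance flags about 1 in 20. This rate does not hold where only 1 dog of a group has a read, as for WNT7A, since that dog is always flagged. IGFBP1 was at 9.87 CPM in the mid-gestation dog Turgay and at 0.315 to 0.840 CPM in the other 4. FZD6 was at 30.4 CPM in Turgay and at 50.6 to 58.4 CPM in the others. WNT7A was at 0.257 CPM in Turgay (5 reads) and had no read in the others. TEK was at 143 CPM in the antigestagen-treated dog Seran and between 77.3 and 79.1 CPM in the other 4. WNT7A was at 0.0592 CPM in Seran (1 read) and had no read in the other treated dogs. WNT1 was at 0.308 CPM in the treated dog Suzan (6 reads) and at most at 0.0872 CPM in the others.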

How the results depend on the processing

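Of 8 DEG among the genes in “luteal regression over luteolysis”, 19 in “mid-gestation over luteolysis”, 8 in “luteolysis over antigestagen” and 0 in “luteal regression over mid-gestation” and “luteal regression over antigestagen”, the Wald test of DESeq2 made 16, 29, 19, 2 and 6. With only the 2 compared groups in the model there were 0, 6, 0, 4 and 0. Leaving out 1 dog at a time, the numbers ran from 0 to 19, from 1 to 28, from 0 to 17, from 0 to 0 and from 0 to 1, where a lone regression dog is assumed to vary like the other groups. Without Amy they were 19, 28 and 17 in the 3 contrasts with luteolysis, without Kimba 3, 4 and 3, and without Senta 0, 1 and 0. Without Lissy or Mara the first was 0. Without Dardanel or Gold the second was 7, and the third fell to 5, 3, 5 and 4 without Suzan, Birnur, Seran and Zeynep. The one call over antigestagen came without Citir, the shallowest library. No DEG among the genes changed sign under any alternative, and “mid-gestation over antigestagen” stayed at 0. No paired analysis was possible because each dog is in 1 group and the labels give no replicate numbers. The counts over whole families were not run. Beside the numbers of DEG in this section no shares of all genes are given, so that their changes are not read as particular to the signalling genes. With few reads, GDF10, BMP5, WNT1, WNT7A and FGF18 are limited by depth.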
